A study of Mus musculus with 41 samples.

Results

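The comparison described here is a difference of differences. It asks by how much the footprint response of mouse embryonic fibroblasts (MEFs) carrying the Upf2 label departed from that of MEFs without Hbs1l, after each mutant had been set against the controls of its own sequencing pool. For each gene the Upf2 effect was the log2 footprint level in Upf2-labelled cells minus that in the Upf2-pool controls, and the Hbs1l effect was defined likewise in the Hbs1l pool. The quantity reported is the Upf2 effect minus the Hbs1l effect, so a positive value means more footprints in Upf2-labelled cells relative to Hbs1l cells. It drew on 12 of the 41 samples of the series, 3 libraries in each of 4 groups.

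The study profiled ribosomes and mRNA in mouse tissues and fibroblasts lacking factors of ribosome rescue or mRNA surveillance. All fibroblasts used here carried the CAG-Cre ER transgene, a tamoxifen-inducible Cre recombinase under the ubiquitous CAG promoter, on a C57BL/6 background, and all were treated with tamoxifen, controls included. Per the study's strain list, every group was also n-Tr20 B6J/B6J, homozygous for a mutation that impairs processing of an arginine tRNA. The groups were CAG-Cre ER cells of the Hbs1l pool (Batch 3), CAG-Cre ER; Hbs1l cKO cells of the same pool, CAG-Cre ER cells of the Upf2 pool (Batch 5), and CAG-Cre ER; Upf2 cKO cells of that pool. Per the study's methods, the cells came from single embryos at embryonic day 13, received 4-hydroxytamoxifen at 1 µM for 48 hr, and were collected 48 hr after replating. Each footprint replicate came from 1 embryo and 2 dishes. The Hbs1l allele lacks 1 exon of the gene and leaves a shorter Hbs1l isoform intact, so the cells were not devoid of every product of the locus.

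A ribosome footprint is the stretch of mRNA that a translating ribosome shields from nuclease, and the footprints on a coding sequence reflect both how much of the mRNA is present and how densely ribosomes occupy it. UPF2 bridges UPF1 and UPF3 in nonsense-mediated decay (NMD), the pathway that degrades mRNAs on which translation ends upstream of an exon junction. HBS1L is the GTPase partner of PELO, and the pair splits ribosomes trapped at the end of a truncated mRNA. The study's discussion cites biochemical work in which the pair was not needed for stalls within an mRNA. Many mRNAs of NMD factors, of stress-response genes and of splicing regulators are themselves NMD substrates, which is the background for the gene groups below.

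The targeted genes were examined first. Hbs1l gave 35.5, 39.6 and 32.7 CPM (counts relative to the library total scaled by the trimmed mean of M-values, TMM) in the Hbs1l-pool controls, 2.6, 1.68 and 1.52 in Hbs1l cells, 34.7, 38.7 and 32.7 in the Upf2-pool controls and 28.2, 31.3 and 28.5 in Upf2-labelled cells. It was low in the 3 Hbs1l libraries alone, as their label states. Upf2 gave 53.1, 47.2 and 58.7 CPM in the Hbs1l-pool controls, 58.5, 53.3 and 56.3 in Hbs1l cells, 54.8, 48.9 and 58.2 in the Upf2-pool controls and 114, 113 and 118 in Upf2-labelled cells. The Upf2 total went up where the label says that the gene was deleted, and it did so in mRNA too, with 62.9, 43 and 29.9 CPM in Upf2-labelled cells against 15.6, 21.4 and 16.7 in controls. A count over the whole coding sequence cannot show the loss of single exons, so these counts cannot check the label and the libraries are called Upf2-labelled here. Pelo, the partner of Hbs1l, did not pass the test (difference -0.06 ± 0.14, adjusted p = 0.846).

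The 12 libraries held 5782990 to 15602201 footprints on coding sequences, with the 3 smallest among the mutants. Control libraries of the same number in the 2 pools differed by little more than counting noise (chi-square per gene 1.13 to 1.19 in 3 pairs, against 4.12 to 12.6 in the 12 other pairs of control libraries), so same-numbered controls appear to come from the same cells, although the test described here counts all 6. With each number counted once, by summing its libraries over the pools, 2048 genes differed, among them 605 of the 608 called by the test described here. The same summed controls then serve both mutants, so that setting compares the mutants without a correction for their pool. Summed footprints of 4 Y-linked genes were 217, 233 and 229 CPM in Upf2-labelled cells, at most 0.844 in Hbs1l cells, and 210 and 201 in control 3 of the 2 pools against at most 2.24 in controls 1 and 2. Embryo sex and genotype therefore cannot be told apart between the mutants, and results are also given with Y-linked signal as a covariate or with sex-matched controls where either ended a call. With sex-matched controls, control 3 of the Upf2 pool alone serves the Upf2-labelled cells. Controls 1 and 2 of the Hbs1l pool serve the Hbs1l cells. The covariate contrasts control 3 of both pools, which appears to be 1 embryo, with controls 1 and 2. How far fewer controls end calls with sex-matched controls was not tested. Globin genes and other erythroid markers were near 0 (8 of 10 had at most 3 counts in every library), and fibroblast markers were abundant in all libraries.

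The Upf2 and Hbs1l effects differed for 608 of 12334 genes (4.93%), of which 355 (2.88%) were higher and 253 (2.05%) lower in Upf2-labelled cells relative to Hbs1l cells (edgeR quasi-likelihood test, Benjamini-Hochberg adjusted p at most 0.05, which is what called means throughout). The 2 mutants each departed widely from their controls, with 5451 genes called for the Upf2 effect (44.2%) and 4412 for the Hbs1l effect (35.8%). These counts come from different tests, so they do not show what share of the changes differed between the mutants. The called differences had a median of 0.73 log2 units among the higher genes, 107 of which exceeded 1, and of -0.56 among the lower genes, 46 of which exceeded 1 in size. Over all tested genes the median was -0.01.

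Most of the higher genes moved in Upf2-labelled cells. Of the 355, 193 were called higher for the Upf2 effect and not called for the Hbs1l effect, 55 were called higher in both mutants, 55 higher in Upf2-labelled and lower in Hbs1l cells, 47 lower in Hbs1l cells with no call for Upf2, and 5 lower in both. Among the 253 lower genes, 112 were lower in Upf2-labelled cells alone, 67 were lower in both mutants, 51 were called higher in Hbs1l cells alone, 21 had opposite calls and 2 were higher in both. A call in one mutant and not in the other is a sorting of genes that already passed the test of the difference. Leaving out 1 library at a time gave 353 to 583 called genes, with 353 or 360 when control 1 of either pool was left out and 399 without replicate 2 of the Upf2-labelled cells, and leaving out control 1 of both pools together gave 178.

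**Figure D1:**
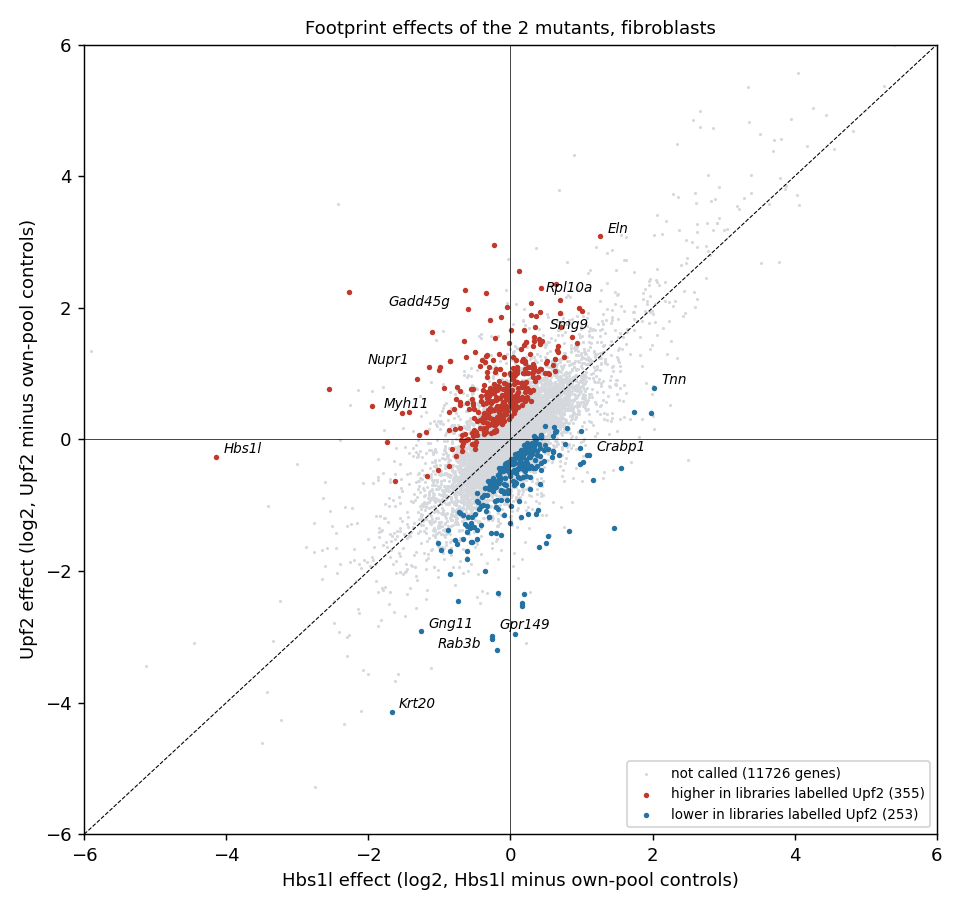
Footprint effect of the Upf2 label (vertical axis) against that of Hbs1l loss (horizontal axis), both log2 against the controls of the same pool, for each tested gene; 4 of 12334 genes lie beyond the axes at 6. Red points are the 355 genes called higher and blue points the 253 called lower in Upf2-labelled relative to Hbs1l cells, and they lie on either side of the dashed line of equal effects, with Gadd45g, Nupr1 and Rpl10a far above it and Rab3b and Gpr149 far below it.

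NMD factors were the list with the highest share of called genes. Of 13 members, 8 were higher in Upf2-labelled relative to Hbs1l cells and none was lower, against 2.88% and 2.05% of all tested genes, and the list median was 0.63. Smg1, the kinase that phosphorylates UPF1, gave 139, 155 and 145 CPM in Hbs1l cells and 302, 296 and 284 in Upf2-labelled cells, beside 104, 108 and 116 and 105, 105 and 114 in the respective controls. Every Upf2-labelled library lay above every other library, and the Hbs1l libraries lay above all controls, so Smg1 rose in both mutants (Upf2 effect 1.45, Hbs1l effect 0.42) with a difference of 1.03 ± 0.09 (SE, adjusted p = 7.93e-06).

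Smg9, a subunit of the SMG1 complex, showed the largest difference of the list. It gave 22.4, 23.5 and 21.9 CPM in Hbs1l cells, 62.4, 62.5 and 58.8 in Upf2-labelled cells and 15.3 to 19.8 in the 6 control libraries. The Upf2-labelled libraries stood apart from all others, and the difference was 1.35 ± 0.13 (adjusted p = 2.46e-05). Upf1, the RNA helicase at the centre of the pathway, gave 260, 247 and 267 CPM in Hbs1l cells and 461, 443 and 469 in Upf2-labelled cells, with a difference of 0.82 ± 0.08 (adjusted p = 2.81e-05). Smg5 and Smg6, which bind phosphorylated UPF1 and bring in RNA decay, differed by 0.80 and 0.63, and the Upf2 gene itself by 1.01 ± 0.12 (adjusted p = 0.000144).

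Upf3b, the X-linked UPF2-binding factor, was the weakest call of the group (0.61 ± 0.16, adjusted p = 0.0412), and it was lost in 12 of 27 alternatives, both Y-linked ones included. Its paralogue Upf3a did not pass (0.23 ± 0.13, adjusted p = 0.341), and neither did Smg8, the partner of SMG9 (-0.03 ± 0.10, adjusted p = 0.895). Smg1, Smg9, Upf1, Upf2 and Smg5 kept their calls in all 27 alternatives, and the list had 6 to 9 members called higher over them. In mRNA 9 of the 13 were higher in Upf2-labelled cells (17.0% of all genes tested in mRNA were) and none was lower. The 10 core and peripheral genes of the exon junction complex, the mark that NMD reads, included no called gene (median 0.14).

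**Figure D2:**
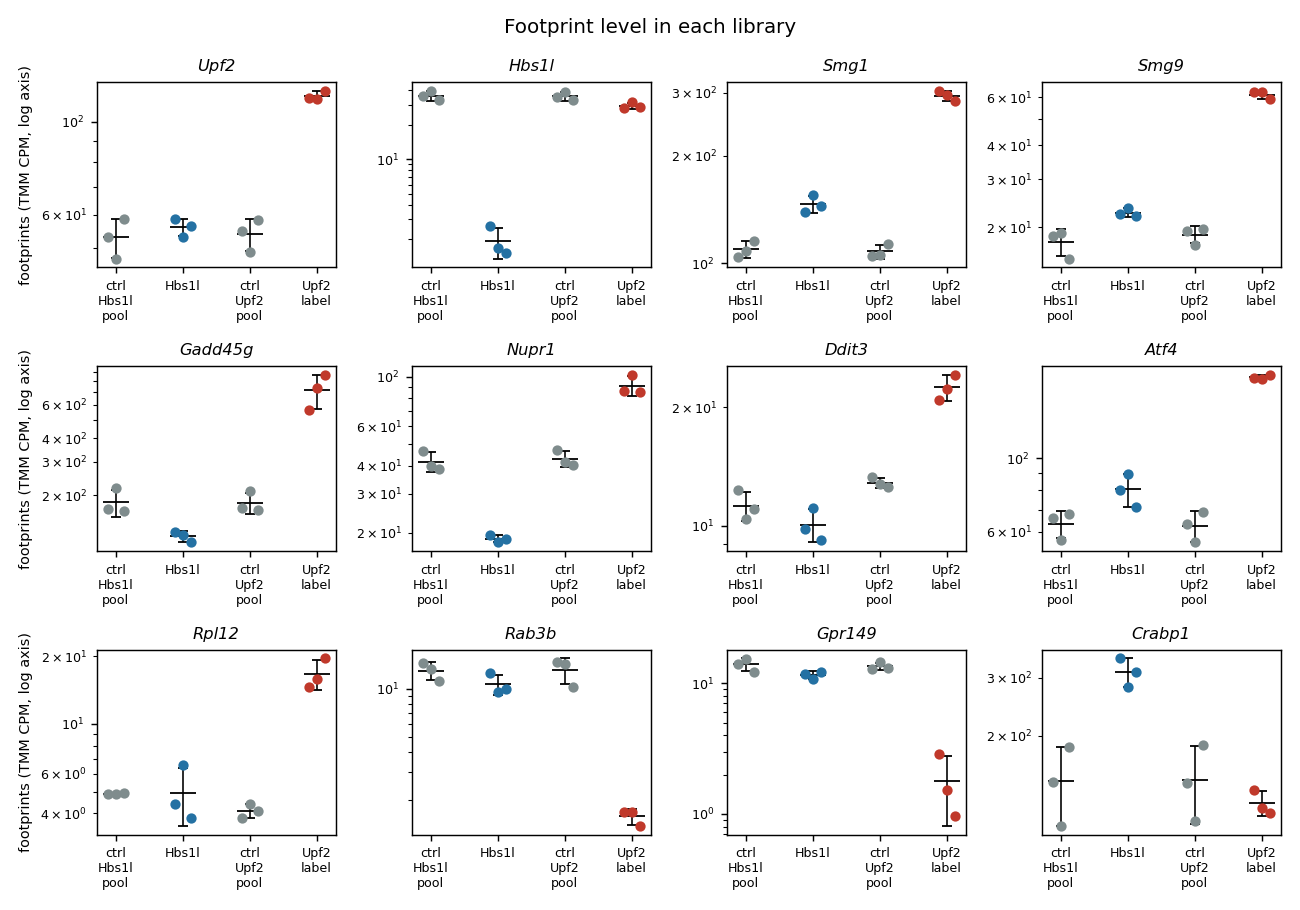
Footprint level of 12 genes in each library (points, TMM-scaled CPM on a log axis) with the mean and SD of the 3 libraries of each group, for the Hbs1l-pool controls, Hbs1l cells, Upf2-pool controls and Upf2-labelled cells. Upf2-labelled libraries lie above all others for Upf2, Smg1, Smg9, Gadd45g, Nupr1, Ddit3, Atf4 and Rpl12 and below all others for Rab3b and Gpr149, whereas Crabp1 is high in Hbs1l cells (282 to 344 CPM).

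Genes with an annotated NMD transcript, an isoform that the annotation marks as a substrate of the pathway, made up 36.6% of the higher genes, 20.9% of the lower genes and 28.3% of all tested genes. The mRNA libraries allowed the share of such isoforms to be read from estimated transcript levels (TPM, a length-corrected unit). Across 3036 expressed genes with an NMD isoform, the median share of a gene's TPM in these isoforms was 2.76% in controls, 2.76% in Hbs1l cells and 5.84% in Upf2-labelled cells. The 3 Upf2-labelled libraries lay above the 3 Hbs1l libraries without overlap for 36.5% of them and below for 2.31%. Among 125 genes with higher footprints the medians were 3.64%, 4.46% and 8.52%, with 44.8% of genes above without overlap, and among 51 genes with lower footprints they were 1.11%, 1.54% and 3.1%, with 37.3% above. The share above without overlap was thus near the background among the lower genes.

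Among the ribosomal protein genes, Rpl10a and Rpl12 were called higher and shifted towards their NMD isoforms. Rpl12, which encodes a protein of the large subunit stalk base, gave 4.42, 6.55 and 3.84 CPM of footprints in Hbs1l cells and 14.6, 15.8 and 19.5 in Upf2-labelled cells, with 3.81 to 4.93 in the controls. The Upf2-labelled libraries lay above all others and the Hbs1l libraries overlapped the controls, and the difference was 2.07 ± 0.26 (adjusted p = 0.00027). Its NMD isoforms took 35.6%, 33.9% and 34.4% of the gene's TPM in Hbs1l cells and 82.1%, 81.8% and 83.4% in Upf2-labelled cells.

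For Rpl10a, a large subunit protein, footprints were 15.2, 11.9 and 10.1 CPM in Hbs1l cells and 31.1, 42.2 and 39.9 in Upf2-labelled cells (difference 1.78 ± 0.21, adjusted p = 0.000146). The NMD share was 5.6%, 5.47% and 5.9% against 54.4%, 48.5% and 58.4%. Both genes have near-identical processed copies that can divert reads, and their low footprint counts for ribosomal proteins make the levels uncertain. The shares called in the 2 subunit lists were near the 4.93% of all genes. Of 33 genes of the small subunit 1 was called higher and 1 lower (median -0.10), and of 46 of the large subunit 2 higher and 1 lower (median -0.21). Rps12, the small subunit gene called higher, differed by 1.00 ± 0.23 (adjusted p = 0.0197) and lost its call in 7 of 27 alternatives, both Y-linked ones included.

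RNA-binding regulators known to control their own mRNA through NMD isoforms gave mixed values. Hnrnpdl, an hnRNP D-like splicing regulator, gave 82.2, 79.6 and 78.8 CPM in Hbs1l cells and 137, 137 and 122 in Upf2-labelled cells, both above the controls (44.6 to 56.7), with a difference of 0.67 ± 0.12 (adjusted p = 0.00507) that was lost with sex-matched controls and without control 1 of both pools. Its NMD share rose from 37.7%, 38.6% and 40.6% in Hbs1l to 70.5%, 65.6% and 72.2% in Upf2-labelled cells. Cirbp, the cold-inducible RNA-binding protein, had 4.28, 6.22 and 5.44 CPM in Hbs1l against 12.6, 10.7 and 13.2 in Upf2-labelled cells, a difference of 1.34 ± 0.25 (adjusted p = 0.00521) that was kept in all 27 alternatives.

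Of 36 hnRNP and autoregulated genes 3 were called, all higher (median 0.08), and of 16 SR splicing factors none was (median 0.06). Among all tested genes 4.93% were called and 2.88% were called higher. For the Upf2 effect 11 of the 16 were called higher (22.7% of all tested genes were) and for the Hbs1l effect 10 (18.1%). Srsf2, for instance, had NMD shares of 49.4%, 42.3% and 47% in Upf2-labelled cells and 21.5%, 14.3% and 14.6% in Hbs1l cells, yet its footprints did not pass the test (0.40 ± 0.12, adjusted p = 0.0771). Mdm4, a p53 inhibitor whose mRNA can skip an exon, differed by 1.03 ± 0.25 (adjusted p = 0.0254) at 4 to 12 CPM and lost its call in 12 of 27 alternatives, both Y-linked ones included.

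**Figure D3:**
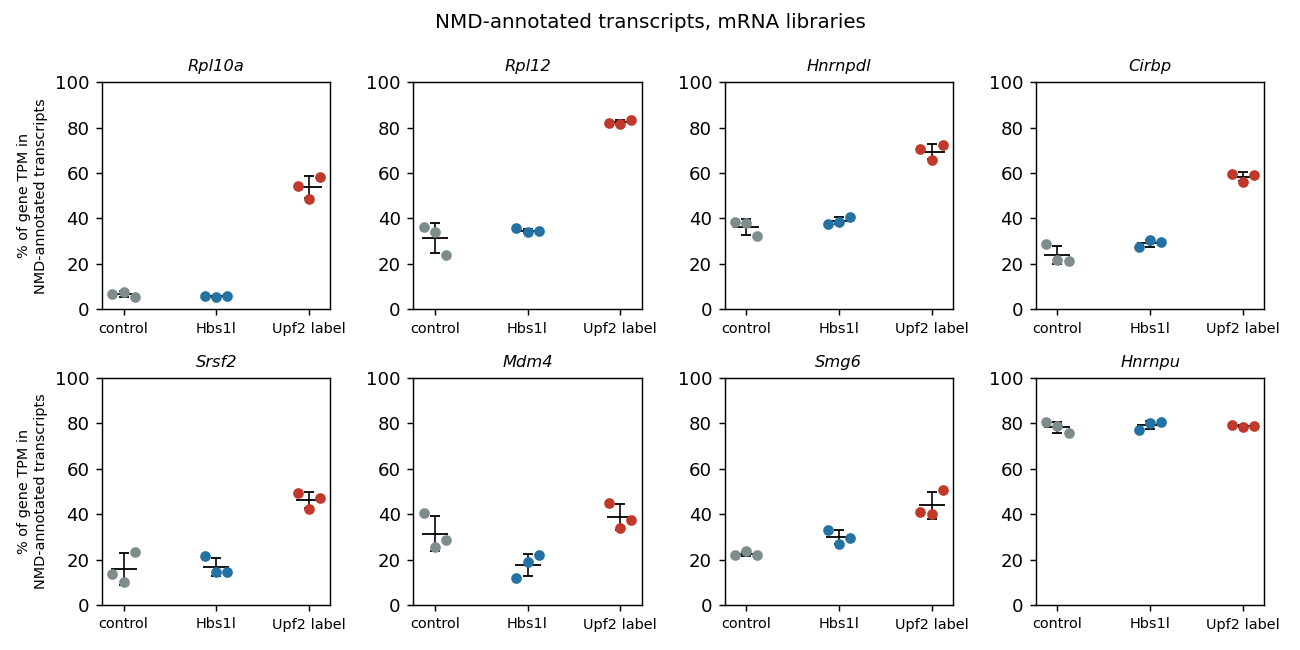
Percent of a gene's mRNA (TPM) in transcripts annotated as NMD substrates in each of the 3 control, 3 Hbs1l and 3 Upf2-labelled mRNA libraries (points) with mean and SD, for 8 genes. Rpl10a rises from 5.47% to 5.9% in Hbs1l to 48.5% to 58.4% in Upf2-labelled cells, whereas Hnrnpu stays between 75.6% and 80.5% in all 9 libraries.

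Stress genes known as NMD targets were next in share, with 7 of 18 higher and none lower, against 2.88% and 2.05% of all tested genes. The list median was 0.66. The median was 0.29 with the Y-linked covariate (6 called higher) and 0.28 with sex-matched controls (5), and under the summed controls 12 were higher and 1 lower. The 3 Gadd45 genes, which encode small stress sensors that bind MAP kinase kinases and PCNA, were all among them. Gadd45g, on chromosome 13 (51846678 to 51848468, GRCm38, plus strand), gave 128, 124 and 113 CPM in Hbs1l cells, 564, 735 and 859 in Upf2-labelled cells and 165 to 218 in the 6 control libraries. The Hbs1l libraries were all below the controls and the Upf2-labelled libraries all above them. The effects were thus opposite, 1.98 for Upf2 and -0.60 for Hbs1l, and differed by 2.57 ± 0.20 (adjusted p = 2.21e-06).

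Gadd45b moved likewise, with 45.3, 41.8 and 46.5 CPM in Hbs1l and 131, 140 and 145 in Upf2-labelled cells, beside 48.5 to 67.1 in controls (1.62 ± 0.16, adjusted p = 2.45e-05). Gadd45a differed by 1.36 ± 0.19 (adjusted p = 0.000547), and here the Hbs1l effect did not pass (-0.33, adjusted p = 0.07). The mRNA differences of the 3 genes were 4.15, 2.35 and 1.51 for Gadd45g, Gadd45b and Gadd45a. For each of the 3, the call in footprints was kept in all 27 alternatives.

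Ddit3 encodes CHOP, a transcription factor of the stress response whose mRNA carries an upstream open reading frame. It gave 9.82, 11.1 and 9.19 CPM in Hbs1l cells, 20.9, 22.2 and 24.2 in Upf2-labelled cells and 10.4 to 13.3 in controls, a difference of 0.98 ± 0.16 (adjusted p = 0.00219). A second gene model with the same symbol (ENSMUSG00000116429) has its coding blocks at chr10:127290829-127290891 and chr10:127293712-127293750 on the plus strand, upstream of the main coding sequence, which begins at 127295341 on the same strand. Footprints on this upstream frame were 7.58, 8.07 and 8.65 CPM in Hbs1l cells, 31.3, 34.2 and 26.7 in Upf2-labelled cells and 9.88 to 13.3 in controls.

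The 3 groups of libraries did not overlap on the upstream frame. Its Upf2 effect was 1.49 and its Hbs1l effect -0.65, a difference of 2.14 ± 0.18 (adjusted p = 7.06e-06), and both Ddit3 calls were kept in all 27 alternatives. The mRNA of Ddit3 differed by 3.24 ± 0.14 (adjusted p = 8.79e-08), so its difference was larger in mRNA than in footprints on the main frame. Whether the 2 frames differ from each other was not tested.

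Targets of ATF4, the transcription factor that is translated when eIF2 is phosphorylated and that switches on amino acid transport and synthesis, were called in 1 direction. Of 55 tested genes 13 were higher and none was lower (median 0.27), against 2.88% and 2.05% of all tested genes. Under the summed controls 30 were higher and 1 lower, without control 1 of both pools 5 were higher, and with sex-matched controls 9 were, with a median of 0.16. Both mutants raised members of the list, with 37 called higher for the Upf2 effect (22.7% of all tested genes were) and 21 for the Hbs1l effect (18.1%). The list includes Atf4, Ddit3 and Trib3, which are also in the stress list.

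Atf4 itself gave 80.4, 89.7 and 71.4 CPM in Hbs1l cells, 174, 174 and 179 in Upf2-labelled cells and 55.7 to 68.9 in controls. Both mutants stood above their controls without overlap, Upf2-labelled cells by more (Upf2 effect 1.49, Hbs1l effect 0.34), and the difference was 1.15 ± 0.13 (adjusted p = 9.96e-05). Nupr1, a small chromatin-associated stress protein, gave 19.5, 18.1 and 18.7 CPM in Hbs1l cells, 86.1, 102 and 85.5 in Upf2-labelled cells and 38.6 to 46.8 in controls. It fell in Hbs1l cells (-1.14) and rose in Upf2-labelled cells (1.10), and the difference of 2.24 ± 0.14 (adjusted p = 2.55e-07) was kept in all 27 alternatives. Trib3, a pseudokinase that restrains AKT and CHOP signalling, gave 20, 23.9 and 16.6 against 45.2, 40 and 42.5 CPM (1.05 ± 0.22, adjusted p = 0.01). Its call was lost with the Y-linked covariate, with sex-matched controls, and without control 1 of both pools.

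The other called members, of which some are named here after their values were seen, had smaller differences and included transporters and tRNA synthetases. The neutral amino acid transporter Slc1a4 differed by 0.73 ± 0.12 (adjusted p = 0.00279) and the large neutral amino acid transporter Slc7a5 by 0.57 ± 0.13 (adjusted p = 0.0164). The alanyl-tRNA synthetase gene Aars differed by 0.42 ± 0.07 (adjusted p = 0.00243), the tyrosyl-tRNA synthetase gene Yars by 0.35 ± 0.08 (adjusted p = 0.0223) and the transcription factor Atf5 by 0.75 ± 0.17 (adjusted p = 0.0197). All 5 were also called higher in Upf2-labelled cells against their own controls. The alternatives were fitted over all genes, but their values for these 5 genes were not looked up, so the stability of each call is not known. Without control 1 of both pools 5 members of the list were called higher, Nupr1, Atf4 and Ddit3 among them. Not all of the 5 genes named here can therefore have kept their calls there. In mRNA 6 genes of the list were higher (17.0% of all genes tested were) and 14 lower (12.6%) in Upf2-labelled than in Hbs1l cells, with a median of -0.22, and none of these 5 passed there.

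The promoters of this list were searched for TGATGNAA, the core letters of the C/EBP-ATF response element that ATF4 binds with C/EBP factors, on both strands of RefSeq windows from 250 bases before to 50 after the start of the gene (GRCm38.p6). The set searched held a single window per symbol and left out a whole chromosome. Within it the motif stood in 5 of the 11 called members with a promoter (45.5%). It stood in 10 of 32 members that were tested and not called (31.2%). Of 9765 promoters of tested genes 2.19% held the motif, and of all 27025 in the set 4.06% held it. The motif was therefore common in the list whether or not a gene was called, and it stood in 3.52% of the genes called higher with a promoter in the set. A match is a run of letters and not a site shown to be bound. The windows of Aars (chr8:111033592-111033891, plus strand), Nupr1 (chr7:126625421-126625720, minus strand), Slc1a4 (chr11:20332664-20332963, minus strand) and Yars (chr4:129189653-129189952, plus strand) are printed 5′ to 3′ because they hold the same 8 letters in called genes, with the match in capitals, read on the opposite strand in Aars, Nupr1 and Slc1a4. Aars holds 2 matches, of which the first carries these letters. The shared match begins 112 bases before the start of Aars, 110 bases before the start of Nupr1, 4 bases before that of Slc1a4 and 3 bases after that of Yars.
Aars: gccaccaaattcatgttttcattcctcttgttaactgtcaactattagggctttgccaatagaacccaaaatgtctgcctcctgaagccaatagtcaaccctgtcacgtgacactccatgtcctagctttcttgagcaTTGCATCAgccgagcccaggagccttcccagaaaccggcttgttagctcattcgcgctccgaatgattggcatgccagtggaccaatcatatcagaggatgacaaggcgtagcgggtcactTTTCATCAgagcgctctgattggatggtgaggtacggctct
Nupr1: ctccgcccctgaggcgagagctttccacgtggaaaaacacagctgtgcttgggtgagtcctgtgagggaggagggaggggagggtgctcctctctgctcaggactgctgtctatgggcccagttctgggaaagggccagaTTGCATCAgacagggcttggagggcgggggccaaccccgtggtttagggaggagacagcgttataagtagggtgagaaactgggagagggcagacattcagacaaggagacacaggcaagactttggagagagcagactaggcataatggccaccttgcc
Slc1a4: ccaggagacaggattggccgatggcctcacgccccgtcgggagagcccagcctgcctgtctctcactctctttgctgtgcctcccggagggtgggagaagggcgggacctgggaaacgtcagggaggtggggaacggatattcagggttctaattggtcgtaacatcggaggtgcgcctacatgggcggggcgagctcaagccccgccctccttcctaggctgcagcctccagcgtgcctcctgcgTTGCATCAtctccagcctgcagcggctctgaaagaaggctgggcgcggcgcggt
Yars: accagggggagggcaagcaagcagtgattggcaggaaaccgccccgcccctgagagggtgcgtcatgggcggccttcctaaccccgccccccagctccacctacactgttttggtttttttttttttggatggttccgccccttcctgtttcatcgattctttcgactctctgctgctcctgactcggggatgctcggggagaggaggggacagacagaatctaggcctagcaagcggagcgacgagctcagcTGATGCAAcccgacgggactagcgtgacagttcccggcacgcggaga

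Genes of the unfolded protein response, which raises chaperones of the endoplasmic reticulum, had positive differences in all 23 tested members (median 0.22), against 5950 of 12334 over all tested genes, and 4 were called, all higher (2.88% of all tested genes were). Hspa5, which encodes the chaperone BiP, gave 2640, 2491 and 2431 CPM in Hbs1l cells, 3349, 3394 and 3216 in Upf2-labelled cells and 2260 to 2427 in controls. The Upf2-labelled libraries were the highest for Hspa5, and its difference was 0.39 ± 0.08 (adjusted p = 0.0067). Hyou1, another chaperone of the compartment, differed by 0.44 ± 0.08 (adjusted p = 0.00559), and Ern1, the stress sensor IRE1, by 0.68 ± 0.16 (adjusted p = 0.0208).

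For Manf, a secreted factor of the same response, the difference of 0.37 ± 0.09 (adjusted p = 0.0235) came with a fall in Hbs1l cells (-0.27) and no call in Upf2-labelled cells. Without control 1 of both pools no gene of the list was called, and under the summed controls 11 were, all higher. Hspa5 and Ern1 also lost their calls with sex-matched controls, and Manf with both Y-linked alternatives.

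**Figure D4:**
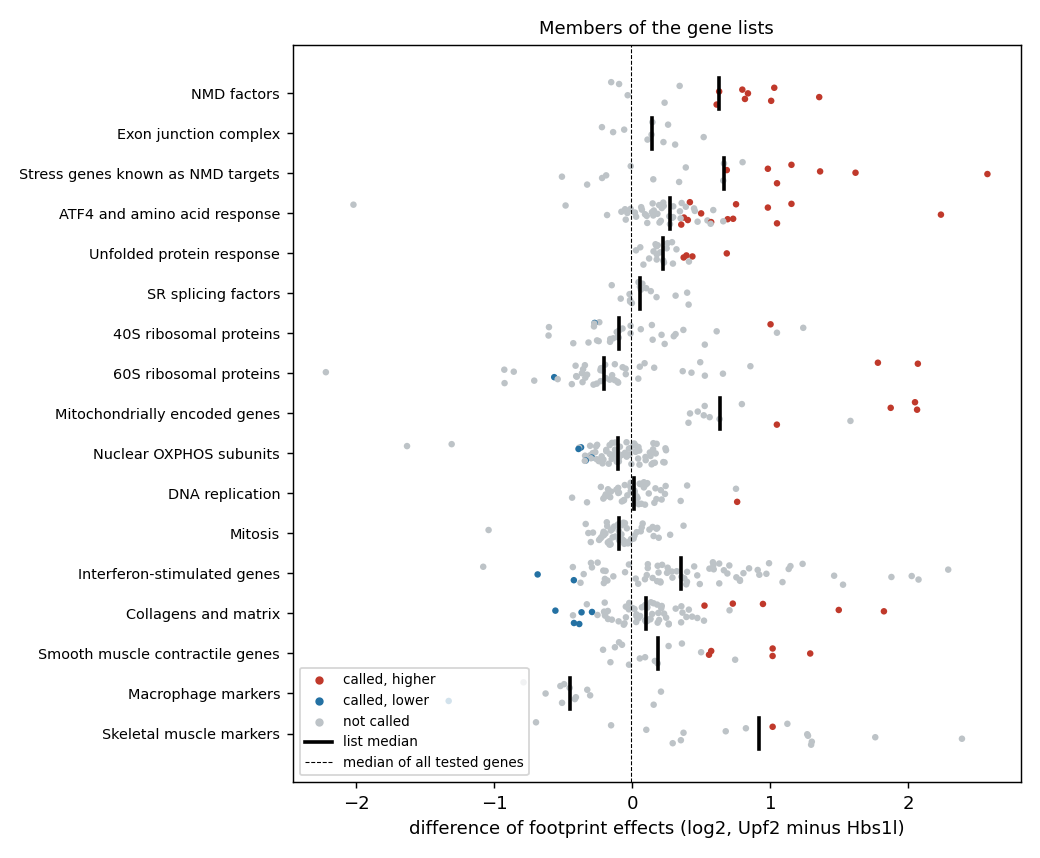
Difference between the Upf2 and Hbs1l footprint effects (log2) for each tested member of the gene lists, 1 row a list, with called genes in red (higher) or blue (lower), the list median as a black bar and the median of all tested genes as a dashed line. The NMD factors, with a median of 0.63 and 8 of 13 members called higher, stand to the right of the dashed line, whereas lists such as mitosis (median -0.10) straddle it.

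Among genes with opposite calls in the 2 mutants, Stx1a and Mcpt8 stood out beside the stress genes. Stx1a, a syntaxin of the vesicle fusion machinery, gave 4.07, 4.37 and 6.96 CPM in Hbs1l cells, 14, 13.3 and 16.2 in Upf2-labelled cells and 7.62 to 10.6 in controls. The 3 levels did not overlap (1.72 ± 0.26, adjusted p = 0.00114). Mcpt8, a serine protease gene, went the other way with 12.2, 12.3 and 19.5 CPM in Hbs1l cells, 4.71, 3.66 and 2.61 in Upf2-labelled cells and 9.73 to 10.7 in controls (-2.00 ± 0.28, adjusted p = 0.000658). Both calls were kept in all 27 alternatives.

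Some of the genes with the most negative differences were low in Upf2-labelled cells alone. Rab3b, a small GTPase of regulated secretion on chromosome 4, gave 12.5, 9.58 and 9.9 CPM in Hbs1l cells, 1.68, 1.7 and 1.37 in Upf2-labelled cells and 10.3 to 14.7 in controls. The Upf2-labelled libraries lay far below all others (-2.77 ± 0.28, adjusted p = 3.65e-05). Gpr149, an orphan receptor, had 11.9, 10.8 and 12.1 CPM in Hbs1l cells and 2.86, 1.52 and 0.962 in Upf2-labelled cells (-2.73 ± 0.28, adjusted p = 3.65e-05). In mRNA, Rab3b differed by -1.64, whereas Gpr149 did not pass (adjusted p = 1). Flt4, the lymphatic growth factor receptor VEGFR3, fell likewise in footprints, from 19.4, 18.8 and 23.3 to 3.87, 6.88 and 7.7 CPM (-1.65 ± 0.23, adjusted p = 0.000658), and its mRNA did not pass either (adjusted p = 0.251). The calls of Rab3b, Gpr149 and Flt4 were kept in all 27 alternatives.

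A second set fell in both mutants and further in Upf2-labelled cells. Krt20, an epithelial keratin, gave 7.72, 6.89 and 12.5 CPM in Hbs1l cells, 1.85, 0.893 and 2.34 in Upf2-labelled cells and 23.1 to 36.9 in controls (-2.46 ± 0.41, adjusted p = 0.00261). Gng11, a G protein gamma subunit, gave 16.1, 10.4 and 26.4, then 4.88, 5.81 and 5.77, with 39.9 to 46.9 in controls (-1.66 ± 0.31, adjusted p = 0.00547). Tfpi2, an inhibitor of matrix-degrading serine proteases, gave 21.7, 24.5 and 40, then 8.58, 8.76 and 10.7, with 46.4 to 52.9 in controls (-1.72 ± 0.25, adjusted p = 0.0007). For these 3 genes the order was controls, then Hbs1l, then Upf2-labelled cells, with no overlap, and their calls were kept in all 27 alternatives. None of the 3 passed in mRNA, with adjusted p of 0.0969 for Krt20, 0.354 for Gng11 and 0.502 for Tfpi2.

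Other genes with negative differences had high footprint levels in Hbs1l cells. Crabp1, a carrier of retinoic acid, gave 344, 282 and 313 CPM in Hbs1l cells, 137, 121 and 117 in Upf2-labelled cells and 107 to 187 in controls. The Upf2-labelled libraries lay within the control range and the Hbs1l libraries above it (-1.34 ± 0.25, adjusted p = 0.00586). Tnn, the matrix glycoprotein tenascin-N, rose in both mutants, to 38, 27.7 and 29.3 CPM in Hbs1l and 16.5, 9.74 and 12.6 in Upf2-labelled cells from 6.42 to 8.8 (-1.24 ± 0.26, adjusted p = 0.0109), and its call was lost with both Y-linked alternatives. Fosl1, a subunit of the AP-1 transcription factor, was higher in Hbs1l cells alone (78.1 to 90.5 CPM against 53.3 to 63.5 elsewhere, -0.67 ± 0.11, adjusted p = 0.00233). Of 33 immediate early genes 3 were called, all lower (2.05% of all tested genes were), and over the alternatives 1 to 6 were lower and up to 3 higher.

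Macrophage markers were measured as a list. Summed footprints of 14 macrophage markers were 286 to 396 CPM in Hbs1l cells, 214 to 264 in Upf2-labelled cells and 149 to 214 in controls, with every marker detected. Of 13 tested, 11 were called higher for the Hbs1l effect (18.1% of all tested genes were) and 5 for the Upf2 effect (22.7%). For the difference 1 was called lower and none higher (2.05% and 2.88% of all tested genes were), with a median of -0.45. With the Y-linked covariate 6 were called lower and with sex-matched controls 4, with a median of -0.83 in each. Mrc1, the macrophage mannose receptor, gave 22.4, 23.5 and 19.4 CPM in Hbs1l cells and 8.74, 7.24 and 6.32 in Upf2-labelled cells (-1.33 ± 0.32, adjusted p = 0.0255), a call lost in 10 of 27 alternatives. Csf1r, the receptor that sustains macrophages, did not pass (-0.63 ± 0.22, adjusted p = 0.113). In bulk samples fewer cells of a type and less RNA per cell cannot be told apart, and how far such cells contribute to other differences was not tested.

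Of 68 matrix genes 5 were called higher and 5 lower (14.7% called, against 4.93% of all tested genes), with a median of 0.10. Eln, which encodes elastin, gave 453, 477 and 226 CPM in Hbs1l cells, 1571, 1252 and 1276 in Upf2-labelled cells and 147 to 176 in controls. It rose in both mutants and more in Upf2-labelled cells (1.82 ± 0.27, adjusted p = 0.000919), although the mRNA of Eln was lower there than in Hbs1l cells (-1.98 ± 0.39, adjusted p = 0.00343). Col8a2, a short-chain collagen, gave 30.9, 28.2 and 21.7 against 75.3, 75.8 and 75.9 CPM (1.50 ± 0.18, adjusted p = 0.00014), with an mRNA difference of -0.90. Igfbp3, a binding protein of insulin-like growth factors, likewise had a positive footprint difference (1.21 ± 0.26, adjusted p = 0.0119) and a negative mRNA difference (-1.50).

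These 3 genes were among 9 genes called higher in footprints and lower in mRNA. Col3a1, a fibrillar collagen, differed by 0.52 ± 0.14 (adjusted p = 0.0455) and lost its call in 13 of 27 alternatives, both Y-linked ones included, whereas Eln and Col8a2 kept theirs in all. Aldh1a1, a retinaldehyde dehydrogenase with the second largest difference among genes named for size (2.92 ± 0.71, adjusted p = 0.0267), spread from 15.5 to 43 CPM over the Upf2-labelled libraries and from 2.6 to 10.3 in controls. Control 3 of both pools was its highest control, and the call was lost in 8 of 27 alternatives, both Y-linked ones included.

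Contractile genes of smooth muscle were called higher for the difference in 5 of 19 cases and lower in none (median 0.18), against 2.88% and 2.05% of all tested genes. Without control 1 of the Upf2 pool, or without replicate 2 of the Upf2-labelled cells, 2 were called higher. For the Hbs1l effect 16 members were called lower (17.7% of all tested genes were) and for the Upf2 effect 12 (21.5%). Myh11, smooth muscle myosin heavy chain, gave 91.8, 134 and 132 CPM in Hbs1l cells, 230, 292 and 343 in Upf2-labelled cells and 183 to 269 in controls. The Hbs1l libraries lay below the controls and the Upf2-labelled libraries overlapped them (1.29 ± 0.25, adjusted p = 0.00824).

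Mylk, the kinase that activates smooth muscle myosin, gave 39.5, 46.4 and 37.6 CPM in Hbs1l and 78.9, 84.4 and 77.1 in Upf2-labelled cells, on either side of the controls at 47.3 to 55.2 (1.02 ± 0.12, adjusted p = 0.000144). Myl9, a regulatory light chain, was lower in both mutants (Hbs1l effect -1.02, Upf2 effect -0.46), and the difference of 0.56 ± 0.14 (adjusted p = 0.034) was lost in 10 of 27 alternatives, whereas Myh11 and Mylk kept theirs in all. Summed skeletal muscle markers were also unequal, at 113 to 190 CPM in Hbs1l cells, 233 to 327 in Upf2-labelled cells and 366 to 493 in controls, with Pax7 and Myf6 at no more than 3 counts in any library. Of 16 such markers tested 1 was called, higher (2.88% of all tested genes were), with a median of 0.92. For the Hbs1l effect 16 were called lower (17.7% of all tested genes were) and for the Upf2 effect 6 (21.5%). In mRNA 12 were higher in Upf2-labelled than in Hbs1l cells (17.0% of all genes tested in mRNA were). Of 6 pericyte markers 2 were called higher, against 2.88% of all tested genes. They were Kcnj8 and Cspg4, which lost their calls in 9 of 25 and 2 of 27 alternatives. Both calls were lost with sex-matched controls and without control 1 of both pools. Some genes, Des among them, are in more than 1 of these lists. The part of skeletal muscle cells and pericytes in the smooth muscle result was not tested.

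Genes encoded in the mitochondrial genome had positive differences in 13 of 13 cases (median 0.63), against 5950 of 12334 over all tested genes. Of the 13, 4 were called, all higher (2.88% of all tested genes were). The Hbs1l effect had a median of -0.77 with 8 genes called lower (17.7% of all tested genes were), and the Upf2 effect a median of -0.11 with 4 called higher (22.7%) and 1 lower (21.5%). The 4 called genes were mt-Co3, mt-Atp6, mt-Co2 and mt-Nd6. Subunit 3 of cytochrome oxidase, mt-Co3, gave 5.4, 5.21 and 4.46 CPM in Hbs1l cells, 9.08, 11.8 and 20.6 in Upf2-labelled cells and 5.01 to 13.3 in controls (2.06 ± 0.42, adjusted p = 0.00885).

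For mt-Atp6, a subunit of ATP synthase, the levels were 4.49, 3.53 and 4.64 CPM in Hbs1l cells, 9.92, 10.2 and 12.4 in Upf2-labelled cells, 5.23, 8.18 and 10 in the Hbs1l-pool controls and 3.32, 5 and 5.86 in the Upf2-pool controls (2.05 ± 0.34, adjusted p = 0.00236). Same-numbered controls of the Upf2 pool lay below those of the Hbs1l pool for both genes, which adds to these differences, and with the mutants compared directly they were 1.33 for mt-Atp6 and 1.47 for mt-Co3. These levels were far below those of mt-Co1, at 904 to 1972 CPM, and near-identical nuclear copies of mitochondrial genes can divert reads, so the largest differences of this list are uncertain. The list median was 0.21 with either Y-linked alternative, with 3 genes called higher, and mt-Nd6 was among the calls lost. Of 71 nuclear genes of oxidative phosphorylation, 4 were called, all lower (2.05% of all tested genes were called lower), with a median of -0.11. When control 1 of either pool was left out, 0 were called.

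In several lists most genes were called in the same direction for both mutants and few were called for the difference. Of 49 DNA replication genes 42 were called higher for the Upf2 effect (22.7% of all tested genes were) and 40 for the Hbs1l effect (18.1%), and 1 was called for the difference (median 0.02). Of 53 mitosis genes 49 and 50 were called higher, and none for the difference (median -0.10), but 9 were called lower with the Y-linked covariate and 7 with sex-matched controls, with a median of -0.31 in each. In mRNA 32 of the replication genes and 35 of the mitosis genes were lower in Upf2-labelled than in Hbs1l cells (12.6% of all genes tested in mRNA were), with medians of -0.50 and -0.70. Interferon-stimulated genes, which respond to antiviral signalling, rose by a median of 2.9 log2 units in Upf2-labelled and 2.6 in Hbs1l cells. Of 71 tested, 2 were called for the difference, both lower (2.05% of all tested genes were).

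With other settings interferon-stimulated genes were also called higher, 14 with the summed controls and 6 without replicate 3 of the Upf2-labelled cells. The median difference of the list was 0.36 and turned to -0.045 with the Y-linked covariate and -0.08 with sex-matched controls, and leaving out 1 library moved it between 0.018 (without replicate 1 of the Upf2-labelled cells) and 0.66 (without replicate 3). In mRNA 57 of 70 of these genes were lower in Upf2-labelled than in Hbs1l cells (12.6% of all genes tested were). Of 48 translation factors 2 were called higher and 3 lower (2.88% and 2.05% of all tested genes were). Eif4a2, an RNA helicase of initiation, was higher (0.83 ± 0.11, adjusted p = 0.000547), and Eef1a1, the factor that delivers aminoacyl-tRNA, was lower (-0.66 ± 0.12, adjusted p = 0.00414), the latter with many near-identical copies. Of 24 genes of ribosome rescue and quality control 2 were called (8.33%, against 4.93% of all tested genes). They were Hbs1l itself and Gtpbp2, a GTPase related to HBS1L (0.67 ± 0.17, adjusted p = 0.03). The Gtpbp2 call was lost in 13 of 27 alternatives, both Y-linked ones included.

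The mRNA libraries of the same genotypes showed whether the footprint differences came with differences in message. In mRNA 29.6% of all genes tested were called. Of 354 higher genes tested in mRNA, 242 were called higher in Upf2-labelled than in Hbs1l cells (17.0% of all genes tested were) and 9 lower, with a median mRNA difference of 0.66. Of 252 lower genes, 93 were called lower (12.6% of all genes tested in mRNA were) and 5 higher, with a median of -0.25. Over all genes tested in footprints the median was -0.01. Signs were shared by footprints and mRNA in 310 of the 354 and 182 of the 252, against 7480 of 12255 over all genes tested in both. The footprint differences of the 2 sets were not of equal size either, and whether the sets differ in mRNA was not tested. The third Upf2-labelled mRNA library lacked the Y-linked signal of the other Upf2-labelled mRNA libraries, so the mRNA and footprint replicates of one number were not all from the same embryo.

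**Figure D5:**
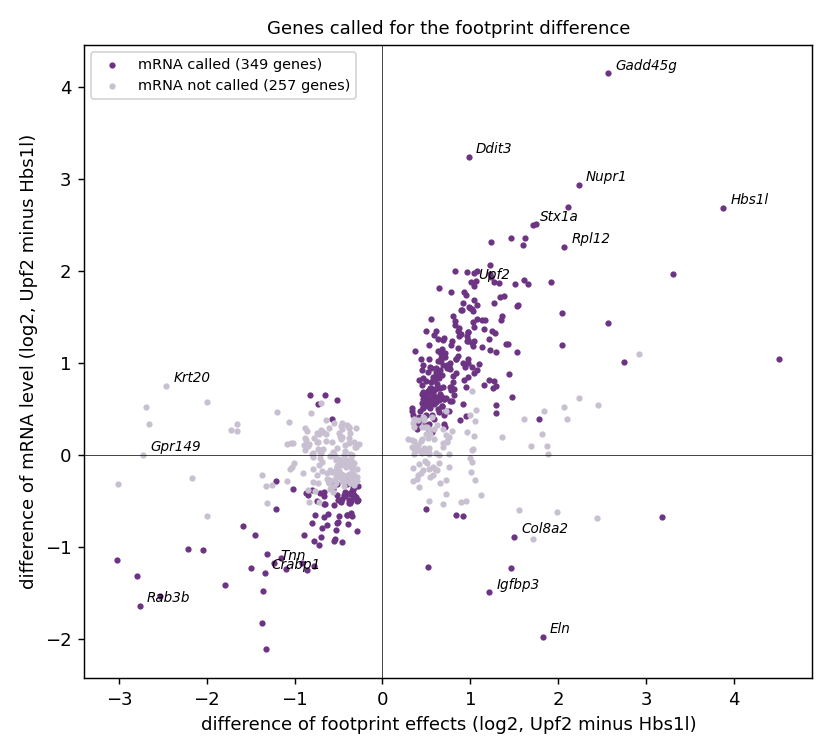
Difference in mRNA level between Upf2-labelled and Hbs1l cells (log2, vertical axis) against the difference between their footprint effects (log2, horizontal axis) for genes called in footprints; purple points were called in mRNA too. Of the higher genes 251 and of the lower genes 98 were called in mRNA, and Eln lies at lower right with more footprints (1.82) and less mRNA (-1.98).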

How the data were processed

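Per the labels and the study's methods, the authors removed rRNA reads with Bowtie2 2.2.3, aligned footprints to mm10 with HISAT2 2.1.0 and deposited raw footprint counts per gene over coding sequences (featureCounts, Gencode M24 annotation). For mRNA they deposited estimated counts and TPM per transcript from kallisto 0.42.4, and transcript values of a gene were added up here and taken to the nearest whole count. Footprint depth was 5782990 to 15602201 counts per library, and intervals of fold changes cover the spread between 3 libraries a group.

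Genes were filtered by edgeR's default rule, 100 histone genes were left out, counts were scaled by TMM, and all 12 footprint libraries were fitted with 1 mean per group by the quasi-likelihood test of edgeR 4.0.16 (R 4.3.3, limma 3.58.1), Benjamini-Hochberg adjusted over all genes. mRNA was fitted over its 9 fibroblast libraries in the same way. The members and lists were chosen with earlier results of these data known. Named genes were the targets, the 12 largest differences in each direction at a mean of at least 5 CPM, up to 8 with opposite effects, up to 4 each with like effects, and the top members of each list. Symbols shared by 2 gene models were kept apart, 12329 of 12334 genes had a position in Gencode M21 (GRCm38), and columns of other samples not used numbered 0. Replicate numbers were checked for pairing. Deviations of same-numbered controls of the 2 pools correlated (0.368, 0.507 and 0.599), and those of mutants and controls did not, so numbers pair the controls alone. Separate embryos make up the replicates per the methods. Tested on simulated data over 12207 genes, the test of the difference recovered 16.2% of genes changed by 0.5 log2 units, 71.2% by 1 and 92.4% by 2, with 2 false calls. The simulated libraries were independent, without sex or pool differences and without controls that share cells. The recovery and false calls in the real libraries can therefore differ from these figures. DESeq2 1.42.0, other scalings, filters, thinning, left-out libraries, summed controls, a replicate block and 2 treatments of the Y-linked signal served as alternatives, the last 2 chosen after seeing the data. Figures were drawn with matplotlib 3.10.9. Some genes counted within the lists are not reported here by name.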

Additional observations from a re-analysis of the deposited data

Results flagged for a closer look

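The 608 genes counted in the report are those whose footprint effect differed between the 2 mutants by the test of the difference itself (edgeR quasi-likelihood test, adjusted p at most 0.05). Among the genes named for opposite calls in the 2 mutants, the difference was 2.57 for Gadd45g, 2.24 for Nupr1, 2.14 for the upstream frame of Ddit3 (ENSMUSG00000116429), 2.06 for mt-Co3, 2.05 for mt-Atp6, 1.72 for Stx1a and 1.62 for Gadd45b, each with footprints higher in Upf2-labelled and lower in Hbs1l cells than in their controls. For Mcpt8 it was -2.00, with footprints lower in Upf2-labelled and higher in Hbs1l cells. For mt-Co3 and mt-Atp6, same-numbered controls were lower in the Upf2 pool, which adds to their differences. Both were smaller with the mutants compared directly, and reads can be diverted to nuclear copies. With 3 libraries a group, no test for a single outlying value within a group was run.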

How the results depend on the processing

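The 608 genes called for the difference became 2048 with same-numbered controls summed, 1928 with the mutants compared directly and no controls, 938 with the Y-linked covariate (436 shared with the 608) and 490 with sex-matched controls (300 shared), and the last 2 settings were chosen after seeing the data. Other settings gave 461 (thinned to the smallest library) to 719 (DESeq2) genes. Leaving out libraries gave 178 to 583 genes for the difference, 4319 to 5535 for the Upf2 effect, 3157 to 4457 for the Hbs1l effect and 3336 to 4838 for the mRNA difference. The count depended most on control 1, left out of the Upf2 pool (353), the Hbs1l pool (360) or both (178), and on replicate 2 of the Upf2-labelled cells (399). With a replicate block the difference was called for 723 genes (589 shared), the Upf2 effect for 5628, the Hbs1l effect for 4564 and the mRNA difference for 4493, although the numbers do not pair mutants with controls. Between the pools, control libraries differed for 7 of 12132 genes with a replicate block (595 at an unadjusted p under 0.05), for 0 without it by edgeR (74) and for 0 by DESeq2 (23). With library totals in place of TMM, 66.1% of calls were higher rather than 58.4%. No gene named by the rule reversed in 27 alternatives. For the genes picked after their values were seen, the values in these alternatives were not looked up. Of 2265 values under 12 settings 89 lost the call and 69 gained one, and of 2835 with libraries left out 318 and 17 did. Changes of 0.5 log2 units were mostly missed on simulated data.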

Other observations

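Summed Y-linked footprints were 0.344, 1.54 and 210 CPM in controls 1 to 3 of the Hbs1l pool and 0.417, 2.24 and 201 CPM in those of the Upf2 pool. In mRNA they were 0.429, 0.268 and 57 CPM in controls, 0.352, 0.372 and 0.464 in Hbs1l cells and 64.3, 58.7 and 0.518 in Upf2-labelled cells. Of the genes called higher for the difference 1.69% were X-linked, of those called lower 3.95%, and of all tested genes 3.46%. Kdm6a, an X-linked histone demethylase that escapes X inactivation and was picked after its values were seen, gave 46.6, 35.3 and 46.2 CPM in Hbs1l cells and 25.7, 25.4 and 25.2 in Upf2-labelled cells, with a difference of -0.77 ± 0.17 (edgeR quasi-likelihood test, adjusted p = 0.0181).

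Gabarapl1, a ubiquitin-like protein of autophagosomes, gave 30.1, 25 and 29.2 CPM in Hbs1l cells, 53.8, 54.3 and 50 in Upf2-labelled cells and 43.1 to 50.9 in controls. It was called lower in Hbs1l cells (-0.71) and not called in Upf2-labelled cells (0.18), and the difference was 0.89 ± 0.12 (edgeR quasi-likelihood test, adjusted p = 0.000478), with an mRNA difference of 1.57. Limch1, an actin-associated regulator of non-muscle myosin, fell in both mutants, to 34, 29.7 and 34.6 CPM in Hbs1l cells and 49.6, 48.2 and 53.1 in Upf2-labelled cells from 65.8 to 84.3 in controls, and differed by 0.63 ± 0.14 (edgeR quasi-likelihood test, adjusted p = 0.0194). Samhd1, a dNTP hydrolase that restricts viruses, was lower in Upf2-labelled cells (110, 115 and 111 CPM against 149 to 155 in all other libraries), with a difference of -0.42 ± 0.07 (edgeR quasi-likelihood test, adjusted p = 0.0025), and was 1 of the 2 interferon-stimulated genes called lower.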
